A study of Mus musculus with 10 samples.

Results

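The genes described here are prolactin (Prl), 3 proliferins (Prl2c2, Prl2c3 and Prl2c5) and the prolactin receptor (Prlr), taken by name as 5 of the 36009 genes in a count table of 10 CT26 tumors. The family was chosen by its values in responders against non-responders, with the results of that comparison already known, so its group values are given as a description and carry no test. The tumors grew from CT26, a mouse colorectal carcinoma line, injected subcutaneously into female wild-type (WT) BALB/c mice, and the labels give no age. Most of each tumor was removed by surgery, and polyA RNA was sequenced from the removed, untreated portion. A hydrogel loaded with poly(I:C), a synthetic double-stranded RNA that mimics viral infection, was then placed on the tumor left behind. Responders (n = 6) were mice whose tumors regressed completely and non-responders (n = 4) were mice whose tumors grew without delay. All 10 portions were therefore collected before any treatment, and the groups differ in what happened afterwards. Every tumor came from a single implanted cell line and held the host cells of the resected tissue, and the labels give neither a batch nor a time of collection.

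Prolactin is a peptide hormone made chiefly by lactotroph cells of the anterior pituitary, where the factor POU1F1 (Pit-1) drives its gene, and it is best known for preparing the mammary gland for milk production. It acts on PRLR, a class I cytokine receptor without kinase activity of its own, which signals through the kinase JAK2 to the transcription factor STAT5 and is dampened by the feedback inhibitors CISH and the SOCS proteins. Rodents carry a large family of related genes, most of them used by the placenta. The proliferins belong to this family, are secreted by trophoblast giant cells and by some proliferating cultured cells, and act on blood vessels in part through the mannose 6-phosphate receptor IGF2R.

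Library totals ran from 29065126 to 38042544 estimated counts among responders and from 23374649 to 32986456 among non-responders. Expression is given as CPM, each count scaled to its library total after adjustment of the totals by the trimmed mean of M values (TMM), and ± marks the SD unless SE is stated. The carcinoma label was checked against keratins and Epcam, which define epithelial cells. Epcam had 3 to 19 counts per tumor, Krt8 0 to 14 and Krt18 0 to 3, which is near 0 in all 10 tumors. Other genes of the 13 in the glandular epithelium list were detected in every tumor, with 20.1 to 34.4 counts of Krt7, 11 to 91 of Trp63 and 7 to 30 of Wfdc18. Non-responder 2 stood apart in having 58 counts of Krt14 and 82.7 of Krt5, keratins of basal and skin epithelium, where no other tumor had more than 2 of either.

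Prl lies on chromosome 13 (ENSMUSG00000021342, GRCm38 chr13:27057570-27065205, plus strand). The 250 bases before its start are shown because Prl was the only member whose groups did not overlap, and because the pituitary factor POU1F1 acts through this stretch in lactotrophs. The sequence comes from RefSeq (GRCm38.p6, chr13:27057320-27057569, plus strand). Capitals mark TATNCAT, the core of the POU1F1 site, searched on both strands, and the TATA box, found as TATAAA on both strands with the matches overlapping.
Prl: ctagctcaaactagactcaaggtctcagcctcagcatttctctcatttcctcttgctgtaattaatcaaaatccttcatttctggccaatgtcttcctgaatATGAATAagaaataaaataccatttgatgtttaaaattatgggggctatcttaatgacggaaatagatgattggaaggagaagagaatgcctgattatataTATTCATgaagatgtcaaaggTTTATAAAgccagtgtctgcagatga
The letters TATNCAT began 148 and 47 bases before the start, and TATAAA 26 and 24 bases before it. Of 32851 windows of the same length before mouse gene starts, 7.92% held TATNCAT and 12.4% held TATAAA. The STAT5 motif TTCNNNGAA, present in 7.02% of windows, was not found in this one. These matches are letters only, and binding was not measured.

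Prl was lower in each of the 6 responders than in all 4 non-responders. In responders 1 to 6 it was at 10.6, 10.7, 9.42, 14.2, 7.13 and 10.4 CPM. In non-responders 1 to 4 it was at 27.9, 21.1, 30.3 and 24.4 CPM. The highest responder, number 4 with 14.2 CPM, was still under the lowest non-responder, number 2 with 21.1 CPM. The means were 10.4 ± 2.28 CPM (SD, n = 6) for responders and 25.9 ± 4.04 CPM (SD, n = 4) for non-responders, a log2 fold change of -1.32 (SE 0.16), or 2.49-fold lower in responders. Among the 16041 genes tested, groups did not overlap in 10.4% (4.54% lower and 5.85% higher in responders). A fitted log2 fold change at least as low as that of Prl was held by 34 genes (0.212%), and 67 genes (0.418%) were lower by 1 or more. As Prl was chosen with this contrast known, nothing is read from these shares.

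The counts behind these values were not small. Between 255 and 809 counts of Prl were estimated per tumor, and the spread within groups (coefficient of variation 22.0% in responders and 15.6% in non-responders) was wider than counting error alone would give (5.46% and 3.81%). Leaving out any 1 tumor moved the log2 fold change between -1.42 and -1.23. Without non-responder 2, the tumor that stood apart in Krt14 and Krt5, it was -1.40. By mean CPM, Prl stood above 44.5% of the genes tested, a mid-range level. In a bulk sample, fewer cells of a type and less RNA per cell cannot be told apart, so these values do not say whether responders held fewer Prl-expressing cells or less Prl in each.

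**Figure D1:**
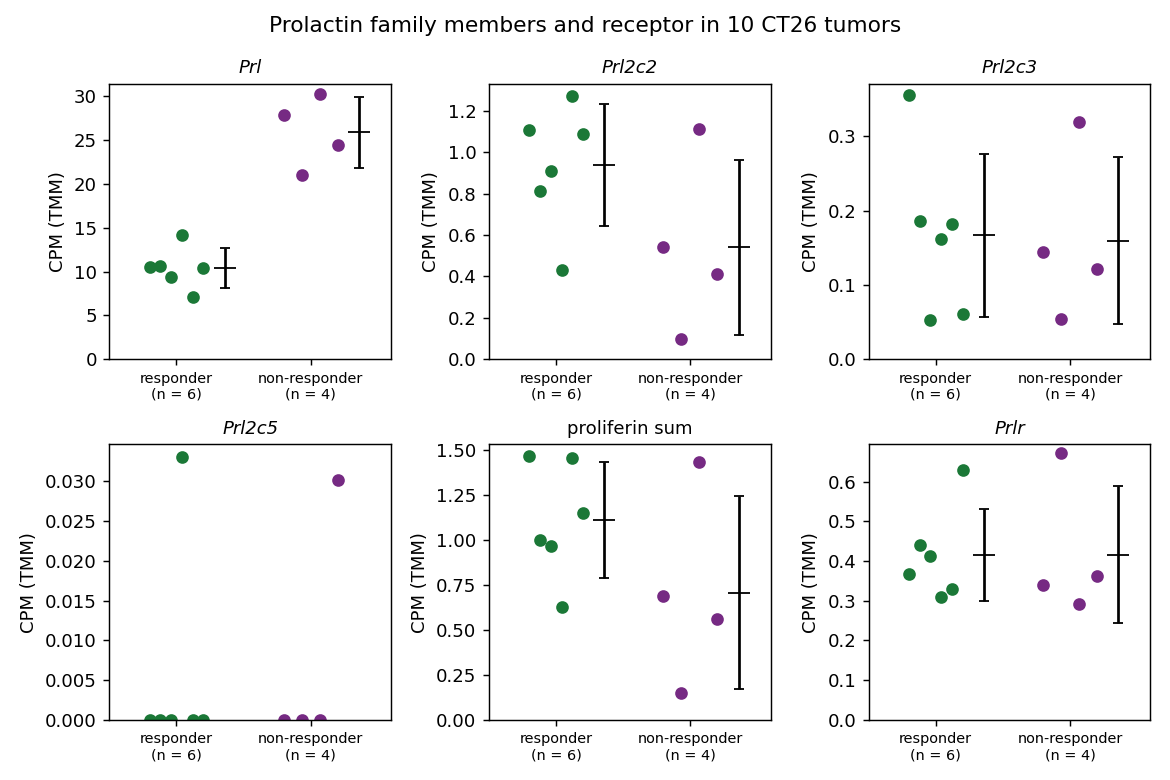
CPM (TMM-scaled, linear axes that start at 0) of each member and of the summed proliferins in 6 responders and 4 non-responders, 1 point per tumor; horizontal marks and bars are the mean and SD, left out for Prl2c5. Prl points sit between 7.13 and 14.2 CPM in responders and between 21.1 and 30.3 CPM in non-responders, while the groups of all other panels overlap.

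Most other pituitary genes were close to absent. Of 8 pituitary hormones and factors, 6 stayed under 10 counts in all tumors and Fshb was at 0 in all of them. Gh and Cga, which encode growth hormone and the shared subunit of the glycoprotein hormones, had 0 to 1 counts, and Pou1f1 had 1 to 4.06. The exceptions were the hormone genes Tshb, detected in every tumor with up to 21 counts, and Pomc, with 1 to 15 counts. The summed level of the list was 0.553 to 1.10 CPM in responders and 0.765 to 0.960 CPM in non-responders, which overlap. The dopamine receptor Drd2, through which the brain restrains pituitary prolactin, had at most 3 counts.

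The summed markers of macrophages and of skeletal muscle did not overlap between the groups, and those of the other cell types did. Calls are counted over the markers that passed the filter, where 8.06% of all genes were called (4.71% higher), and the calls over all genes fell to 17, 16 and 0 without responder 3, non-responder 1 and non-responder 4. Macrophage markers summed to 2321 to 3506 CPM in responders (median 2757) and 1706 to 2261 CPM in non-responders, with 5 of 7 genes called higher by edgeR. Among these 7, only Mrc1 had a lower mean in responders, at 411 CPM against 449 CPM in non-responders. Skeletal muscle markers summed to 493 to 1345 CPM (median 778) against 362 to 490 CPM, with 3 of 7 called higher. Both sums were higher in every responder, the direction opposite to Prl. Adipocyte markers summed to 37.8 to 107 CPM (median 83.7) against 25.9 to 45.6 CPM, with 1 of 7 called higher, and T cell markers to 30.3 to 109 CPM (median 52.8) against 16.6 to 37.9 CPM, with 0 of 5 called. Fibroblast markers, the most abundant, summed to 5806 to 6894 CPM (median 6246) against 5050 to 8036 CPM, with 1 of 9 called lower. Endothelial markers summed to 91.3 to 149 CPM (median 111) against 74.3 to 109 CPM, with 0 of 6 called, and skin keratinocyte markers to 4.70 to 5.92 CPM (median 5.11) against 4.16 to 5.79 CPM, with 0 of 2 called. The mammary and other glandular epithelium list summed to 3.12 to 4.58 CPM (median 4.21) against 3.31 to 8.94 CPM, with 1 of 3 called higher and the top value in non-responder 2. The part of these cell types in the level of Prl was not tested.

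The proliferins lie together on chromosome 13, apart from the main cluster that holds Prl, Prl2c3 at chr13:12790816-12800079 (ENSMUSG00000056457, minus strand), Prl2c2 at chr13:12996125-13005383 (ENSMUSG00000079092, minus strand) and Prl2c5 at chr13:13182715-13191923 (ENSMUSG00000055360, plus strand), all on GRCm38. Their coding sequences are nearly the same, and a stretch is shown because it is what makes their separate counts uncertain. Shown are coding bases 316 to 405, counted from the start codon within exon 4 of each transcript (GENCODE M21, chr13:12997378-12997467 for Prl2c2, chr13:12792085-12792174 for Prl2c3 and chr13:13190586-13190675 for Prl2c5). Capitals mark the 5 of 90 positions at which the 3 genes differ.
Prl2c2: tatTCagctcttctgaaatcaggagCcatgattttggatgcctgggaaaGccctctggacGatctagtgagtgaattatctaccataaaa
Prl2c3: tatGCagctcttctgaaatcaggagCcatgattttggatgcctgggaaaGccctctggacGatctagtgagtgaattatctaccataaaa
Prl2c5: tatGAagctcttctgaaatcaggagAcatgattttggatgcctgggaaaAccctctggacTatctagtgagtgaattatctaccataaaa
Prl2c2 and Prl2c3 differ at 1 position of this stretch and at 3 of 672 over the whole coding sequence, an identity of 99.6%. Prl2c5 is 96.1% identical to Prl2c2 and 96.0% to Prl2c3. Of the 31-base words in annotated transcripts of Prl2c2, 89.8% also occur in another gene and 81.2% in Prl2c3. The share with any other gene was 67.0% for Prl2c3 and 46.8% for Prl2c5, but 0.0712% for Prl and 2.02% for Prlr. Reads that fall in shared words are divided between the paralogs by estimation, so the proliferins were also summed.

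**Figure D2:**
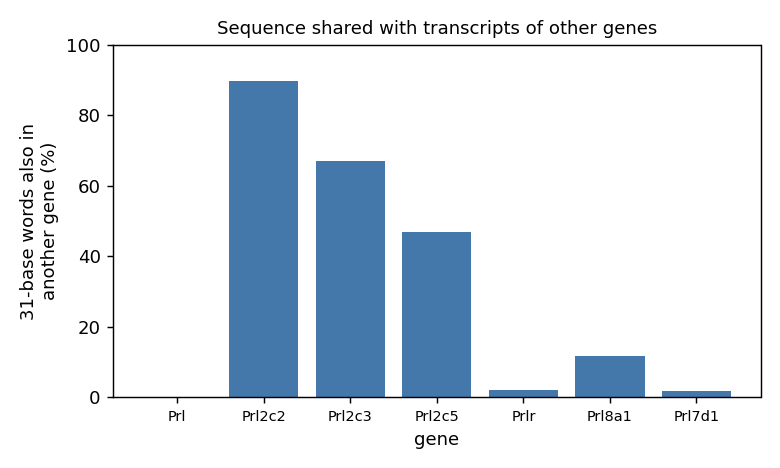
Share of the 31-base words of each gene's annotated transcripts that also occur in a transcript of another gene (percent, bars from 0). The bars of Prl2c2, Prl2c3 and Prl2c5 reach 89.8%, 67.0% and 46.8%, whereas Prl at 0.0712% has no visible bar.

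Proliferin RNA was low and the groups overlapped. Prl2c2 was at 1.11, 0.813, 0.910, 0.432, 1.27 and 1.09 CPM in responders 1 to 6. It was at 0.542, 0.0951, 1.11 and 0.411 CPM in non-responders 1 to 4. Responder 4 lay between non-responders 4 and 1, and non-responder 3 was as high as most responders. The means were 0.937 ± 0.295 CPM (SD, n = 6) for responders and 0.540 ± 0.425 CPM (SD, n = 4) for non-responders, a log2 fold change of 0.82 (SE 0.46) on 2.55 to 45.5 counts per tumor. The estimate leaned on single tumors, being 0.48 without non-responder 2 and 1.40 without non-responder 3.

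Prl2c3 had 1.45 to 10.7 counts per tumor and did not pass the filter on low counts. In responders it ranged from 0.0533 to 0.356 CPM (median 0.172), and in non-responders 1 to 4 it was at 0.144, 0.0542, 0.319 and 0.121 CPM. The means of 0.167 ± 0.1099 CPM (SD, n = 6) for responders and 0.160 ± 0.113 CPM (SD, n = 4) for non-responders differed by less than either SD, with a log2 fold change of 0.13 (SE 0.60) in a fit without the filter. Prl2c5 was at 0 in 8 tumors and had 1 count in responder 4 and in non-responder 4, so no fold is given. A count of 0 allows up to 3 counts, which is 0.0789 to 0.128 CPM at these depths, for counting error only.

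Summed over the 3 genes, responders 1 to 6 held 44, 32, 28, 19, 52 and 44 proliferin counts. Non-responders 1 to 4 held 17, 4, 33 and 18.6. The summed level was 1.11 ± 0.320 CPM over the 6 responders and 0.707 ± 0.534 CPM over the 4 non-responders (means ± SD), a log2 fold change of 0.68 (SE 0.43), with overlap. It was 0.34 without non-responder 2 and 1.23 without non-responder 3. Prl2c2 took 63.7% to 94.7% of the proliferin counts of a tumor.

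Prlr, the receptor, was scarce and its groups did not separate. The gene lies on chromosome 15 (ENSMUSG00000005268, GRCm38 chr15:10177238-10349180, plus strand). In responders 1 to 6 it was at 0.369, 0.441, 0.414, 0.309, 0.329 and 0.628 CPM. In non-responders 1 to 4 it was at 0.339, 0.673, 0.291 and 0.363 CPM. The highest tumors were non-responder 2 and responder 6, and the remaining 8 lay between 0.291 and 0.441 CPM. The means were 0.415 ± 0.116 CPM (SD, n = 6) for responders and 0.416 ± 0.173 CPM (SD, n = 4) for non-responders, a log2 fold change of -0.0035 (SE 0.30).

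Between 6.71 and 24.1 counts of Prlr were estimated per tumor, so the depth sets what can be said. The exact Poisson 95% interval (counting error only) was 2.81 to 14.4 for the rounded count of 7 in non-responder 3 and 15.4 to 35.7 for that of 24 in responder 6. The coefficient of variation in responders, 27.9%, was close to the 27.0% that counting alone would give. In non-responders it was 41.6% against 29.8%. Without non-responder 2 the log2 fold change was 0.32, and without responder 6 it was -0.17.

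Per kilobase of the longest annotated transcript, the mean level over all 10 tumors was 18.5 CPM per kb for Prl, 0.925 for Prl2c2, 0.191 for Prl2c3 and 0.0420 for Prlr. Hormone RNA thus exceeded receptor RNA by length in both groups, at 11.6 against 0.0419 CPM per kb in responders and 28.9 against 0.0421 in non-responders.

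The wider family was nearly silent. All 26 family genes in the table, the 4 hormone members included, lie on chromosome 13. Of the other 22, only Prl8a1 and Prl7d1 reached 10 counts in any tumor, 9 had 1 to 5 counts at most, and 11 were at 0 in every tumor. Among the latter were Prl4a1 and Prl5a1, and among the former the placental lactogen genes Prl3d1, with up to 5 counts, and Prl3b1, with up to 1. Of 10 trophoblast markers, 5 stayed under 10 counts in all tumors, of which Psg18 was at 0 throughout. The highest were Psg17 (143 to 333 counts) and Psg19 (40.8 to 68.3), and Gcm1, Ascl2 and Hand1 reached 12.3, 14 and 11 counts. The sum over the list was 9.41 to 12.03 CPM in responders (median 10.2) and 8.67 to 12.7 CPM in non-responders, with 0 called of the 2 that could be tested.

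**Figure D3:**
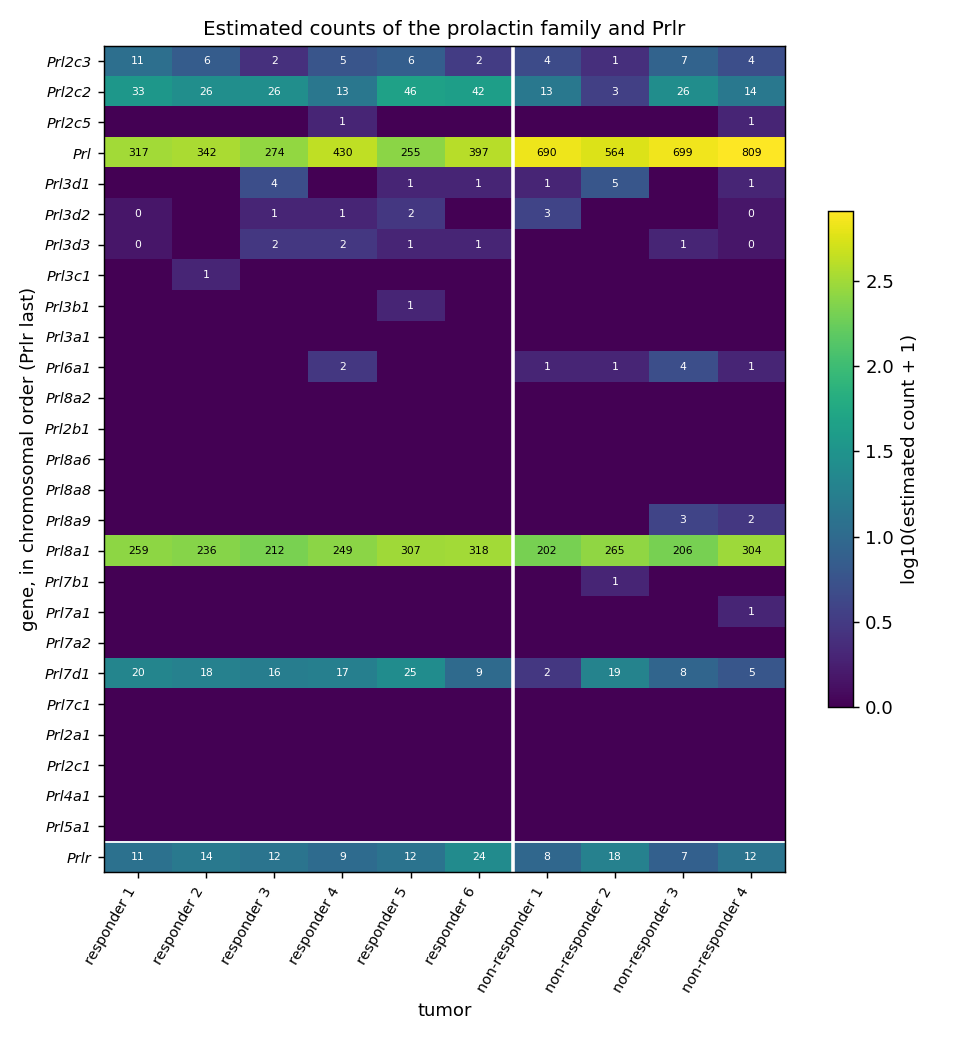
Estimated counts of 26 prolactin family genes in chromosomal order and of Prlr (last row) in each tumor, colored by log10(count + 1) and printed in cells of at least 0.5; the white vertical line divides 6 responders from 4 non-responders. Prl (255 to 809 counts) and Prl8a1 (202 to 318) are the brightest rows, and 11 genes are empty.

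Prl8a1, a placental member of the family, was the only other gene of the cluster well above the filter in every tumor, at a mean of 5.03 CPM per kb (ENSMUSG00000019756, GRCm38 chr13:27573922-27582171, minus strand, 516 kb from Prl). The 250 bases before its start (RefSeq, GRCm38.p6, chr13:27582172-27582421, minus strand) are shown for comparison with Prl, with the STAT5 motif TTCNNNGAA, the only one of the 3 motifs found, in capitals 129 bases before the start.
Prl8a1: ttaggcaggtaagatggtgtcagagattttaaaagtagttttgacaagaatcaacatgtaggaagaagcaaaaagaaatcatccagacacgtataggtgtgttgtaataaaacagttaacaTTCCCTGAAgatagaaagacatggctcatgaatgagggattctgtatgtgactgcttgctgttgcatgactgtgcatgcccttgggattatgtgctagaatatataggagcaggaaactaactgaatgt
The upstream stretches of Prl and Prl8a1 were 47.2% identical when aligned, whereas those of Prl2c3 and Prl2c5 were 96.0% identical and those of Prl2c3 and Prl7d1 94.0%. Prl8a1 was at 8.63, 7.38, 7.28, 8.23, 8.59 and 8.30 CPM in responders 1 to 6. It was at 8.17, 9.88, 8.92 and 9.17 CPM in non-responders 1 to 4. Non-responder 1 lay inside the responder range, and the means were 8.07 ± 0.594 CPM (SD, n = 6) for responders and 9.04 ± 0.709 CPM (SD, n = 4) for non-responders. The log2 fold change was -0.16 (SE 0.08, edgeR adjusted p = 0.209 over all genes tested), which did not pass. Within each tumor the count of Prl was 0.830 to 1.72 times that of Prl8a1 in responders and 2.13 to 3.41 times in non-responders. Prl7d1, which encodes the placental hormone proliferin-related protein, had 2 to 25 counts and was at 0.546 ± 0.164 CPM over the 6 responders and 0.322 ± 0.282 CPM over the 4 non-responders (means ± SD), with overlapping groups. Its log2 fold change was 0.76 ± 0.49 (SE), with an edgeR adjusted p of 0.326, and was 0.46 without non-responder 1 and 1.51 without non-responder 2.

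Genes that carry or oppose the prolactin signal were taken from 5 lists of 56 genes. Of the 42 that passed the filter, 13 were called by edgeR at an adjusted p under 0.05, 8 higher and 5 lower in responders, and 29 were not. That is 30.95% of the 42 genes, where 8.06% of all 16041 genes were called (4.71% higher and 3.35% lower). The lists were chosen with earlier results of these data known, so nothing is read from the difference between these shares. The same share and the same limit apply to the counts given for each list below. The median log2 fold change was 0.09 over these 42 genes and -0.0086 over all genes, and 29 estimates were higher in responders. The number of calls changed with single tumors left out. With responder 3, non-responder 1 or non-responder 4 left out, 0 of the 42 genes passed by edgeR (21, 16 and 17 had an unadjusted p under 0.05). Between 1 and 3 genes passed without responder 1, 2, 5 or 6 or non-responder 3, 12 passed without responder 4 and 14 without non-responder 2. The calls over all genes fell with them, to 17, 16 and 0 without responder 3, non-responder 1 and non-responder 4. With 1 tumor left out, the log2 fold change ran from 0.25 to 0.31 for Grb2, from 0.16 to 0.20 for Stat5b and from -0.41 to -0.28 for Igf2r.

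**Figure D4:**
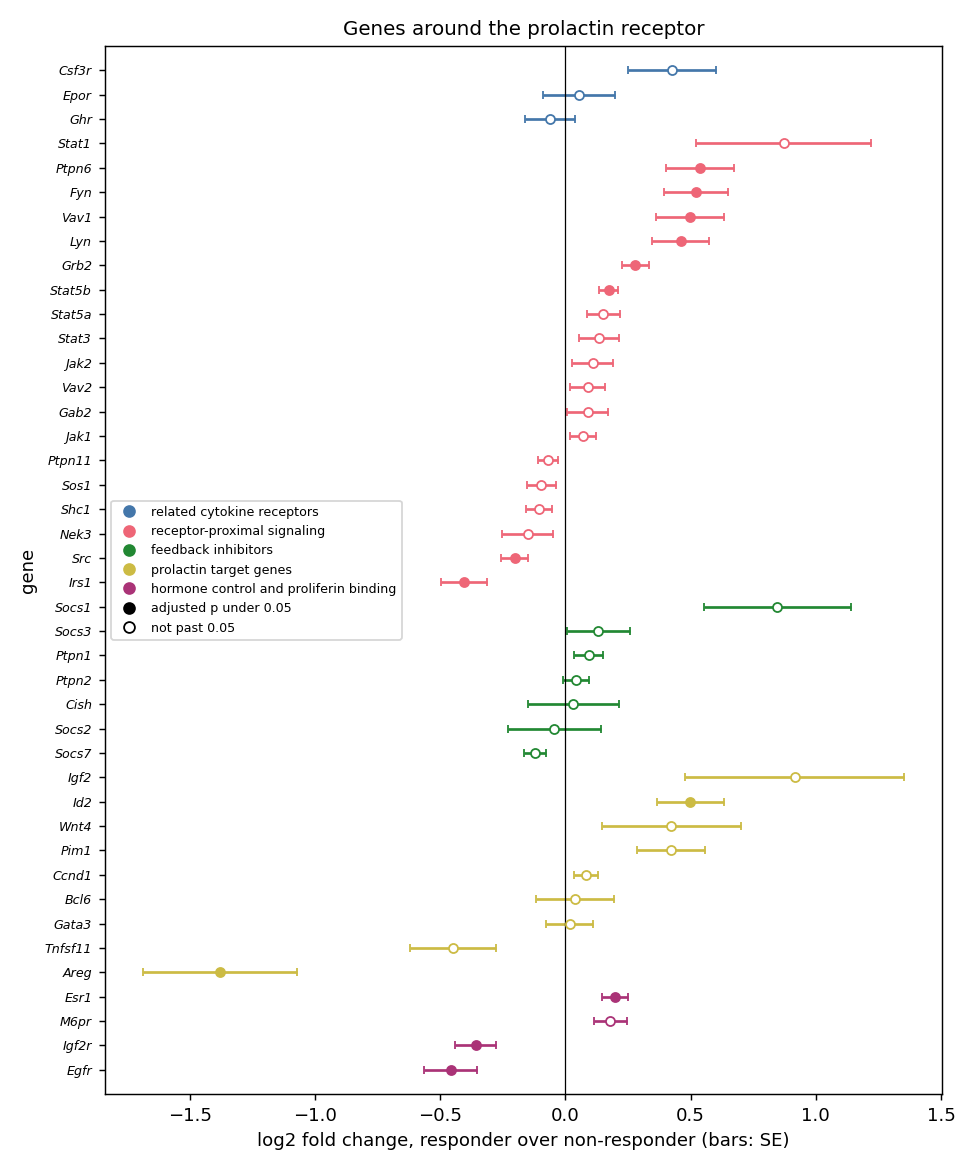
Fitted log2 fold change (responder over non-responder, bars are SE) of the 42 tested genes around the prolactin receptor, colored by list; filled points have an edgeR adjusted p under 0.05. The filled points lie between -1.38 (Areg) and 0.54 (Ptpn6), and none is among the feedback inhibitors or related receptors.

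Receptors of the same class did not pass. Ghr, the growth hormone receptor, was at 94.5 ± 6.36 CPM over the 6 responders and 98.7 ± 17.3 CPM over the 4 non-responders (means ± SD), which gave a log2 fold change of -0.06 ± 0.10 (SE) and an edgeR adjusted p of 0.722. Csf3r, which binds granulocyte colony-stimulating factor, and Epor, the erythropoietin receptor, had log2 fold changes of 0.42 and 0.06 (edgeR adjusted p = 0.136 and 0.833).

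Directly below the receptor, Stat5b rose slightly and Jak2 and Stat5a did not pass. Stat5b was at 71.6 to 78.2 CPM in responders and 64.6 to 69.1 CPM in non-responders, without overlap, which gave a log2 fold change of 0.17 ± 0.04 (SE) and an edgeR adjusted p of 0.0321. Stat5a was at 25.2 ± 2.15 CPM over the 6 responders and 22.7 ± 0.313 CPM over the 4 non-responders (means ± SD), which gave a log2 fold change of 0.15 ± 0.07 (SE) and an edgeR adjusted p of 0.155. For Jak2, the kinase bound to the receptor, the log2 fold change was 0.11 (SE 0.08, edgeR adjusted p = 0.411).

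Of all 19 genes of receptor-proximal signaling, 8 passed. The adaptor Grb2, which links receptors to RAS, was at 112 ± 7.10 CPM over the 6 responders and 92.2 ± 4.57 CPM over the 4 non-responders (means ± SD), which gave a log2 fold change of 0.28 ± 0.05 (SE) and an edgeR adjusted p of 0.0263. The Src-family kinases Fyn and Lyn, the phosphatase Ptpn6 and the exchange factor Vav1 rose by 0.52, 0.46, 0.54 and 0.50 on the log2 scale (edgeR adjusted p = 0.0378, 0.0391, 0.0408 and 0.0469). Ptpn6 and Vav1 are used mainly by blood cells, and the macrophage marker sum was also higher in every responder (2321 to 3506 against 1706 to 2261 CPM). Its part in these changes was not tested. In the other direction, the kinase Src and the insulin receptor substrate Irs1 were lower in responders, with log2 fold changes of -0.20 ± 0.05 and -0.41 ± 0.09 (SE) and adjusted p of 0.0445 and 0.0330 by edgeR. Src did not pass in limma-voom (adjusted p = 0.0510), in edgeR without the filter (0.0673) or in 9 of the 10 fits with 1 tumor left out. Every other called pathway gene except Grb2 also failed in most of the fits with 1 tumor left out.

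None of the 7 feedback inhibitors passed by edgeR, with 2 at an unadjusted p under 0.05. Cish, an early STAT5 target that shuts the receptor down, was at 12.5 ± 2.89 CPM over the 6 responders and 12.2 ± 2.66 CPM over the 4 non-responders (means ± SD), which gave a log2 fold change of 0.03 ± 0.18 (SE) and an edgeR adjusted p of 0.926. Socs2, another STAT5 target, was at 7.90 ± 1.93 and 8.14 ± 1.73 CPM, which gave a log2 fold change of -0.04 ± 0.19 (SE) and an edgeR adjusted p of 0.903. The signs of both changed when single tumors were left out. Socs1 had the largest estimate of this list, 0.85 (SE 0.29, edgeR adjusted p = 0.0866), and passed in DESeq2 (adjusted p = 0.0190). Socs7 and the phosphatase Ptpn1 had log2 fold changes of -0.12 and 0.09 (edgeR adjusted p = 0.0998 and 0.309).

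Of 17 genes known as prolactin targets in the mammary gland and elsewhere, 9 could be tested and 2 passed. Areg, which encodes the EGFR ligand amphiregulin, was lower in responders at 2.64 ± 0.924 CPM (SD, n = 6) against 6.88 ± 2.94 CPM in non-responders (SD, n = 4), which gave a log2 fold change of -1.38 ± 0.31 (SE) and an edgeR adjusted p of 0.0327. Its groups overlapped, with a responder at 4.22 and a non-responder at 3.62 CPM. Id2, an inhibitor of helix-loop-helix factors, rose from 62.0 ± 13.4 CPM in non-responders to 87.6 ± 10.7 CPM in responders (log2 fold change 0.50, SE 0.13, edgeR adjusted p = 0.0461). Pim1, a STAT5-induced kinase, had 0.42 (SE 0.14, edgeR adjusted p = 0.0717) and passed in DESeq2 (adjusted p = 0.0217). The milk protein genes were at or near 0, with Csn1s2a and Pip at 0 in every tumor, Csn1s1, Wap and Lalba at no more than 1 count, and Csn3 at no more than 6.79.

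Among 9 genes of hormone control and proliferin binding, 4 could be tested and 3 passed. Igf2r, the receptor that binds proliferin, was at 272 ± 20.1 CPM over the 6 responders and 349 ± 44.0 CPM over the 4 non-responders (means ± SD), without overlap. It fell by 0.36 on the log2 scale (SE 0.08, edgeR adjusted p = 0.0330). Egfr fell by 0.46 (SE 0.11, edgeR adjusted p = 0.0334), in the same direction as Areg. Esr1, the estrogen receptor through which the hormone gene is raised in the pituitary, was at 22.3 to 25.3 CPM in responders and 20.0 to 21.9 CPM in non-responders, which gave a log2 fold change of 0.20 ± 0.05 (SE) and an edgeR adjusted p of 0.0449. It did not pass in limma-voom (adjusted p = 0.0505), in edgeR without the filter (0.0745) or in 7 of the 10 fits with 1 tumor left out. M6pr, the second mannose 6-phosphate receptor, did not pass (0.18, edgeR adjusted p = 0.104).

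The genes whose log2 CPM followed each member most closely were then listed by Pearson's r over the 10 tumors, as a description with no test. For Prl these were Slc14a1 (a urea transporter, r = 0.980), Nefm (a neurofilament subunit, 0.977), Antxr2 (a matrix receptor, 0.976), Gnb5 (a G protein subunit, 0.975) and Mex3a (an RNA-binding protein, 0.974). All 5 were lower in responders, with log2 fold changes from -2.26 (Nefm) to -0.33 (Gnb5), so part of each r is the difference between groups. After group means were removed, r was 0.911, 0.869, 0.825, 0.830 and 0.789 in the same order. These genes were picked for the highest r among the 16041 genes tested, so high values, also within groups, follow in part from that choice. Prl8a1, Prl2c2 and Prlr did not follow Prl in this way, with r of 0.50, -0.49 and -0.17 over all tumors and -0.32, 0.033 and -0.39 after group means were removed.

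**Figure D5:**
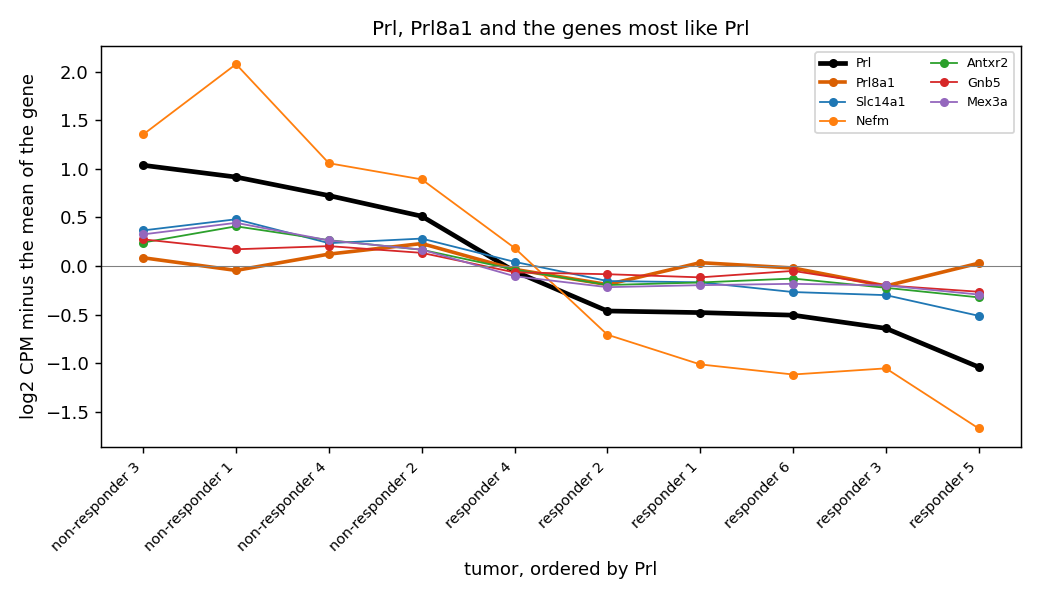
Log2 CPM of Prl, Prl8a1 and the 5 genes most like Prl, each minus its own mean over 10 tumors, with tumors ordered by Prl from high to low. The 4 non-responders come first. The 5 genes were picked for following Prl, so their descent with it was fixed by that choice. Prl8a1 ran from 2.88 to 3.32 log2 CPM, a range similar to that of Gnb5 (2.74 to 3.28), 1 of the 5.

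For Prl2c2 the closest genes were ENSMUSG00000095307 (0.952), Cfap43 (0.919), Cdh11 (a cadherin of mesenchymal cells, 0.901), Srpx (0.893) and ENSMUSG00000099913 (0.887). For the proliferin sum they were the same unnamed pair (0.927 and 0.917), Ndn (0.914), Cdh11 (0.908) and Itm2a (0.908). For Prlr they were ENSMUSG00000113397, Pex13, Slx4ip, G2e3 and Impg2, with r from 0.886 to 0.928. Counts of Prl2c2 and Prlr were too few for these orders to be more than a listing.

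Around Prl itself, 5 genes within 2 Mb were tested, a window chosen after the values of Prl were seen, and edgeR called 0 of them. Over all genes tested 8.06% were called, so 5 genes are too few for this count to say anything about the region. Besides Prl8a1 and Prl7d1, these were Gm11353 (log2 fold change -0.99, edgeR adjusted p = 0.0709), Sox4 (-0.42, edgeR adjusted p = 0.0804) and Rps18-ps5 (-0.17, edgeR adjusted p = 0.113).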

How the data were processed

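The members were chosen with earlier results of these data known, and so were the gene lists and cell type markers. PolyA RNA from the resected portion of 10 CT26 tumors was sequenced as paired reads. The authors checked reads with FastQC, estimated transcript abundance with kallisto on GRCm38 (mm10) and summed transcripts to genes with tximport. The authors deposited the resulting estimated counts per gene without scaling for depth, and 44.8% of the values are not whole (tolerance 1e-06). Which annotation, tximport scaling and strand setting they used is not given in the sources used here, and kallisto divides reads between transcripts that share sequence. Tumors were grouped by the response in the labels and numbered in accession order. Rows without a gene name (9633, with 1.04% to 1.23% of the counts of a tumor) kept their Ensembl identifier. No count was found in 10042 rows. Positions came from GENCODE M21, which matched 35912 of 36009 identifiers.

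After rounding, counts were fitted by edgeR 4.0.16 (R 4.3.3): filterByExpr (minimum count 10, minimum total 15; 16041 genes kept), TMM scaling and the two-sided quasi-likelihood test over all 10 tumors, with Benjamini-Hochberg adjustment over all genes tested and a threshold of 0.05. Tumors are taken as separate animals, and p-values measure the spread between them. Family genes outside the 5 members are rows of the same fit. The SE of an edgeR log2 fold change was computed as its absolute value over the square root of the F statistic. Near a fold change of 0 this SE is unstable, and for Prlr it was 0.30 with rounded and 0.19 with unrounded counts. The script was tested on simulated data. A prior count of 2 entered log2 CPM. The proliferin sum was fitted as an added row. Named were the 5 members, other family genes with 10 or more counts in any tumor, pathway genes called or among the 3 with the smallest p in their list, Jak2, Stat5a, Stat5b, Cish, Socs2, Ghr and Igf2r, and the 5 genes most like each member. Genes at or near 0 and marker genes named beside these were picked after their values were seen. Alternatives were DESeq2 1.42.0, limma-voom (limma 3.58.1), other size factors, other filters, unrounded counts, another scale and leaving out each tumor. Sequence words, alignments and motifs were computed in Python 3.11.15.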

Additional observations from a re-analysis of the deposited data

Results flagged for a closer look

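A tumor far from the others of its group was looked for in 62 groups of values. In 3 of them the gap to the nearest tumor was too large a share of the range (Dixon's 95% limits), where chance gives about 1 in 20, or 3.1.

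Prl7d1 was at 0.235 CPM in responder 6 against 0.550 to 0.699 CPM in the other responders, a gap of 0.679 of the range, on 9 counts. Fyn was at 22.1 CPM in non-responder 1 against 30.9 to 31.7 CPM in the other non-responders, a gap of 0.919. Socs7 was at 57.2 CPM in non-responder 1 against 51.6 to 51.9 CPM in the others, a gap of 0.951. None of Prl, Prl2c2, Prlr and the proliferin sum was among them.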

How the results depend on the processing

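Over 17 alternatives the log2 fold change of Prl stayed between -1.42 and -1.23, that of Prl2c2 between 0.48 and 1.40 and that of the proliferin sum between 0.34 and 1.23. Prlr had estimates on both sides of 0 (-0.17 to 0.32, both ends with 1 tumor left out). Prl2c3 was at 0.088 as a difference of mean log2 CPM. The number of genes called was 1293 in edgeR and 2602 in DESeq2 and ran from 0 to 1897 with 1 tumor left out. It was 0 without non-responder 4 (4106 at an unadjusted p under 0.05), 16 without non-responder 1 and 17 without responder 3. The 13 pathway genes became 15 in DESeq2, 11 in limma-voom, 11 without the filter (Src and Esr1 lost in both) and 0 to 14 with 1 tumor left out. With 1 tumor left out, Ghr ranged from -0.16 to 0.037, Epor from -0.025 to 0.17, Cish from -0.065 to 0.19 and Socs2 from -0.16 to 0.12, so their signs changed. With 1 count in place of 10 as the minimum, 11 rather than 2 other family genes were detected. No paired analysis was possible because the labels give no numbers shared by tumors of the groups. Depth limits Prl2c3, Prl2c5 and Prlr, whose counts are near or under the filter.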
